A study of Mus musculus with 48 samples.

Results

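Striatal RNA of 32 mice of 4 genotypes, out of 48 mice of 6 genotypes in the series, was used to ask how far the response to the Q140 allele differs between mice with the Msh3-/- genotype and mice with wild-type Msh3. The 4 genotypes were Q140 x Msh3-/-, Msh3-/-, Q140 and wild type (WT), with 8 mice each (4 females, 4 males), all labelled C57BL/6. Q140 mice model Huntington's disease through an expanded CAG repeat knocked into their own Htt gene, and the labels give all carriers as heterozygous. The labels name Msh3-/- without describing the allele and mention no Cre driver. Each library came from the striatum of a separate mouse. The labels state an age of 12 months while their extraction text speaks of 6 months, which leaves the true age unknown for all groups alike. The members were chosen by genotype label alone.

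MSH3, a DNA mismatch repair protein, acts in the recognition of small insertion-deletion loops in DNA, and in Huntington's disease models its activity drives further growth of the CAG repeat during life, most of all in striatal neurons. The principal cells of the striatum are GABAergic spiny projection neurons. In the direct pathway they carry the dopamine receptor DRD1, in the indirect pathway DRD2, and both kinds lose expression of their characteristic genes when mutant huntingtin is present. Repeat length was not measured in the files used here.

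For each gene, 3 log2 differences were computed. The Q140 effect on the Msh3-/- background is Q140 x Msh3-/- minus Msh3-/-, the Q140 effect on the WT background is Q140 minus WT, and the interaction is the first minus the second. The 2 effects share no libraries. A gene that fell in Q140 striatum and fell less on the Msh3-/- background has a positive interaction, and a gene that rose in Q140 striatum and rose less has a negative one. Levels are CPM, counts per M (1e+06) of a library scaled by TMM. They depend on transcript length and are compared between mice and not between genes. A gene is called past the threshold at a Benjamini-Hochberg adjusted p (edgeR's quasi-likelihood test over 19714 genes) under 0.05, and errors of log2 differences are standard errors (SE). Striatum is a mixed tissue, so that fewer cells of a type and less RNA per cell cannot be told apart.

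Library totals lay between 38.9 M and 60.9 M counts over the series. Msh3 itself (13, 92211872-92355003, minus strand, GRCm38) had a lowest, median and highest level of 103, 116 and 126 CPM in Q140 x Msh3-/- mice, against 118, 123 and 126 CPM in Msh3-/- mice. In Q140 mice Msh3 had 28.5, 30.3 and 32.5 CPM, against 26.4, 29.3 and 30.9 CPM in WT mice. Msh3 RNA was therefore higher in every library labelled Msh3-/- than in every Q140 or WT library, which goes against a simple loss of the transcript. The labels do not say which part of the gene was changed, so gene counts neither check nor refute the allele, and "Msh3-/-" below is the label's name. The Msh3 interaction was -0.16 (SE 0.0485, adjusted p = 0.0395), a call kept in 13 of 32 fits that each left out 1 mouse. Htt had a median of 226.5 CPM in Q140 x Msh3-/- mice and 221.5 CPM in Msh3-/- mice, with an interaction of 0.12 (SE 0.048) that did not pass (adjusted p = 0.127). Spiny projection neuron genes such as Ppp1r1b and Penk were abundant in every library. Libraries Q140 x Msh3-/- M1, Msh3-/- F1 and Msh3-/- M1 stood apart from the rest on the first component of the residuals (over 3 median absolute deviations, 9.29% of residual variance), as did 1 Q140 x Msh3+/- library. Without them the interaction count given further on as 1213 was 1077, and the Q140 count on the Msh3-/- background given as 1549 was 1304. Counts of neuronal and cell type lists without them are given where the list is described, if they moved by 3 calls or more or by 1.5 times.

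The Q140 response was smaller on the Msh3-/- background than on the WT background, in both directions of change and in every mouse. To set its size with genes picked outside the 4 genotypes, 4247 genes were taken that were past the threshold between Q140 x Msh3+/- and Msh3+/- mice, 2120 higher and 2127 lower with Q140. Over them the median effect, signed by that direction, was 0.1 on the Msh3-/- background and 0.24 on the WT background. The median ratio of the 2 effects per gene was 40.3%, and the slope through the origin was 0.372. Genes higher with Q140 had a median effect of 0.0994 on the Msh3-/- background and 0.219 on the WT background, and genes lower with Q140 had -0.101 on the Msh3-/- background and -0.265 on the WT background. The direction was that of the chosen genes for 89.1% of them on the Msh3-/- background and for 98.3% on the WT background.

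Each mouse was also given a score, the mean signed log2 CPM over these genes minus the mean of mice of its own Msh3 genotype without Q140, written as a percent of the Q140 minus WT difference. The 4 female Q140 x Msh3-/- mice scored 37.2%, 29%, 23.3% and 48.6%, and the 4 males 62%, 55.2%, 46.4% and 29.5%, a mean of 41.4% ± 13.8 (SD, n = 8). Msh3-/- mice lay between -10.1% and 15.6%. Q140 mice had 99.9% ± 5.59 (SD, n = 8), between 88.5% and 107%, while WT mice lay between -5.61% and 7.99%. No Q140 x Msh3-/- mouse overlapped the Msh3-/- mice below or the Q140 mice above. The Q140 x Msh3-/- group was the most spread of the 4, and its highest mouse, M1, was 1 of the libraries that stood apart. Without the libraries that stood apart the median ratio was 42.7%, and over fits that each left out 1 mouse it stayed between 38.3% and 43.0%. It was 34.3% in females and 46.5% in males.

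**Figure D1:**
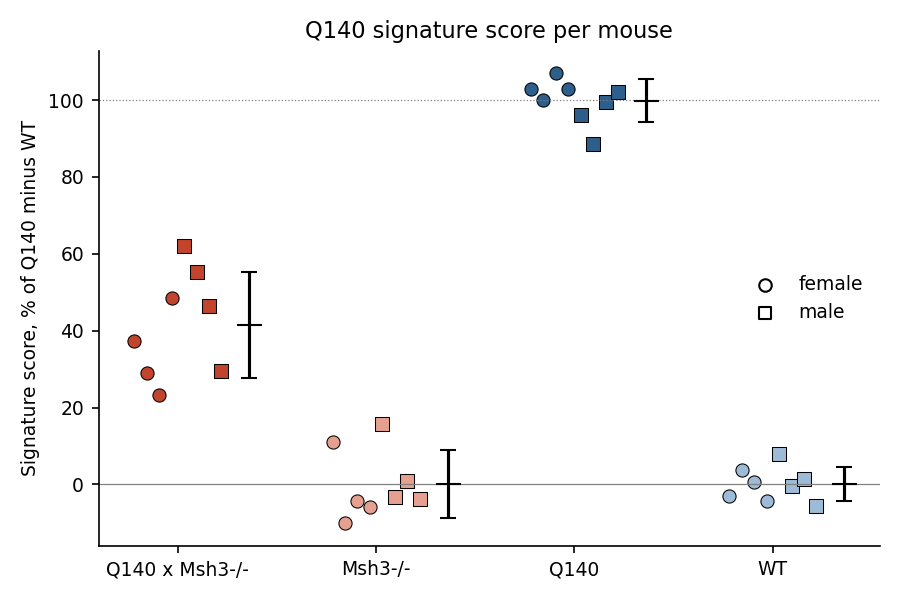
Signature score of each mouse on the vertical axis, as a percent of the Q140 minus WT difference, by genotype (circles females, squares males, bars mean ± SD, n = 8 a group). The Q140 x Msh3-/- mice lie between 23.3% and 62%, between the Msh3-/- mice and the Q140 mice.

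Tested gene by gene, 1213 of 19714 genes (6.15%) had an interaction past the threshold, 806 positive (4.09%) and 407 negative (2.06%). At an unadjusted p under 0.05 there were 3742 (19%). Q140 changed 1549 genes (7.86%) on the Msh3-/- background, 791 up (4.01%) and 758 down (3.84%), and 6506 genes (33%) on the WT background, 3358 up (17%) and 3148 down (16%). The 2 numbers rest on the same number of mice but are not a test of each other, and without Q140 x Msh3-/- mouse F4 the first was 1027. Scaled by total counts in place of TMM, the interaction calls split into 537 positive and 1194 negative, with the median interaction of all genes at -0.0547, and the calls on the WT background into 5773 up and 2064 down. The directions below are those relative to the TMM scale. Without Q140, Msh3-/- mice differed from WT mice in 9 genes (0.0457%), or 1187 (6.02%) at an unadjusted p under 0.05, and Q140 x Msh3-/- mice differed from Q140 mice in 3217 (16.3%). Positive interactions had a median of 0.303 log2, with 53 of at least 1, and negative ones a median of -0.269, with 27 of at least 1.

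The commonest class among the 1213 genes was a response called on the WT background and not on the Msh3-/- background, with 825 genes, 510 of positive and 315 of negative interaction. A further 337 genes responded on both backgrounds in the same direction and less on Msh3-/-, 269 of them positive. Of the 1213, only Lamp5, a lysosome-associated membrane protein, was called on both and more on Msh3-/-. It had 0.27 on Msh3-/- against 0.10 on WT (interaction 0.17, adjusted p = 0.041). Its interaction was past the threshold in 12 of 32 fits that each left out 1 mouse. Lamp5 also belongs to the cortical neuron list described further on. In 6 genes the 2 effects were called with opposite signs, 21 genes responded on the Msh3-/- background only, and 23 on neither. In all, 1168 of the 1213 interactions ran against a called effect on the WT background. That effect enters the interaction with a minus sign, which favours this direction. Most genes called on the WT background alone, 4371, had no interaction past the threshold, so for them a difference between backgrounds was not detectable with 8 mice a group.

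**Figure D2:**
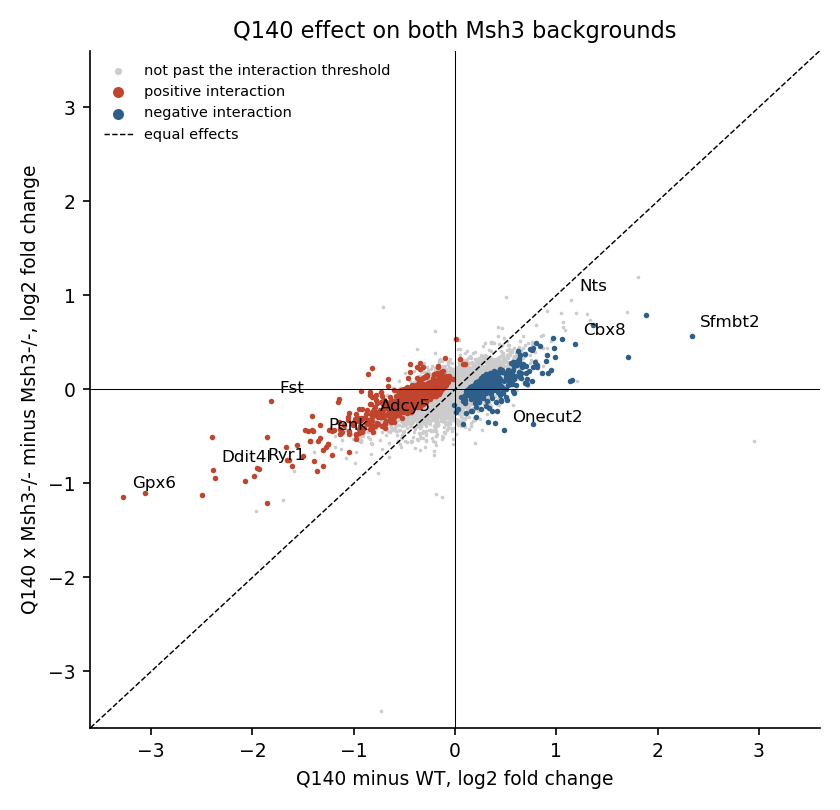
Q140 effect on the Msh3-/- background (vertical, log2 fold change) against that on the WT background (horizontal, log2 fold change) for 13905 genes above a mean log2 CPM of 1, with the line of equal effects. Positive interactions sit above the line, mostly at the left, and negative ones below it, mostly at the right.

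Most identity genes of spiny projection neurons had a positive interaction, their Q140 effect being less negative on the Msh3-/- background than on the WT background. Of 28 tested, 24 were past the threshold with a positive interaction and 0 with a negative one, against 4.09% and 2.06% of all genes. Their median interaction was 0.33, with -0.22 for the effect on the Msh3-/- background and -0.53 for that on the WT background. Over all genes these medians lay within 0.01 of 0. Q140 lowered 21 of the 28 on the Msh3-/- background and 26 on the WT background, and raised none on either. Per gene, the median share of the WT-background effect seen on the Msh3-/- background was 40.2%. The 4 genes without a called interaction were Gng7, Gnal, Foxp2 and Strip2, and all 28 had a positive sign.

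Adcy5, the main striatal adenylyl cyclase (16, 35154877-35305738, plus strand), had a lowest, median and highest level of 1414, 1582 and 1847 CPM in Q140 x Msh3-/- mice, against 1881, 1998 and 2048 CPM in Msh3-/- mice. Its levels were 1057, 1091 and 1173 CPM in Q140 mice, against 1776, 1940 and 2137 CPM in WT mice. The 8 Q140 x Msh3-/- mice stood wholly above the Q140 mice and wholly below the Msh3-/- mice, and their range overlapped that of the WT mice. The effect was -0.32 on the Msh3-/- background and -0.83 on the WT background, an interaction of 0.51 (SE 0.0551, adjusted p = 5.83e-09). Pde10a, the phosphodiesterase that breaks down cAMP and cGMP in these cells, fell by 0.48 on the Msh3-/- background and by 0.98 on the WT background (interaction 0.50, SE 0.0641, adjusted p = 2.24e-07). Arpp21, a cAMP-regulated phosphoprotein, had -0.34 on Msh3-/- and -0.85 on WT (interaction 0.51, SE 0.0663). Scn4b, a sodium channel beta subunit, had -0.55 on Msh3-/- and -1.35 on WT (interaction 0.80, SE 0.104). Ppp1r1b, which encodes the dopamine-regulated phosphatase inhibitor DARPP-32, had -0.37 on Msh3-/- and -0.77 on WT (interaction 0.40, SE 0.057). In each of these 4 genes the WT-background fall was the larger.

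The largest interaction of the list was that of Ryr1, a calcium release channel of the endoplasmic reticulum. It had 61.2, 75.95 and 96.9 CPM in Q140 x Msh3-/- mice, against 109.5, 134 and 171 CPM in Msh3-/- mice. It had 24.7, 33.9 and 49.4 CPM in Q140 mice, against 116.5, 131 and 156 CPM in WT mice. Neither Q140 group overlapped its control, nor did the 2 Q140 groups overlap each other. The effects were -0.85 on Msh3-/- and -1.93 on WT, and the interaction 1.09 (SE 0.175, adjusted p = 3.8e-05). Bcl11b, the transcription factor CTIP2 of these neurons, showed -0.09 on the Msh3-/- background, which did not pass (adjusted p = 0.157), and fell by 0.39 on the WT background (interaction 0.30, SE 0.056). Cnr1, the cannabinoid receptor CB1, was lowered on both backgrounds, with -0.67 on Msh3-/- and -1.05 on WT. Its interaction of 0.38 (adjusted p = 0.0397) was past the threshold in 16 of 32 fits that each left out 1 mouse.

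**Figure D3:**
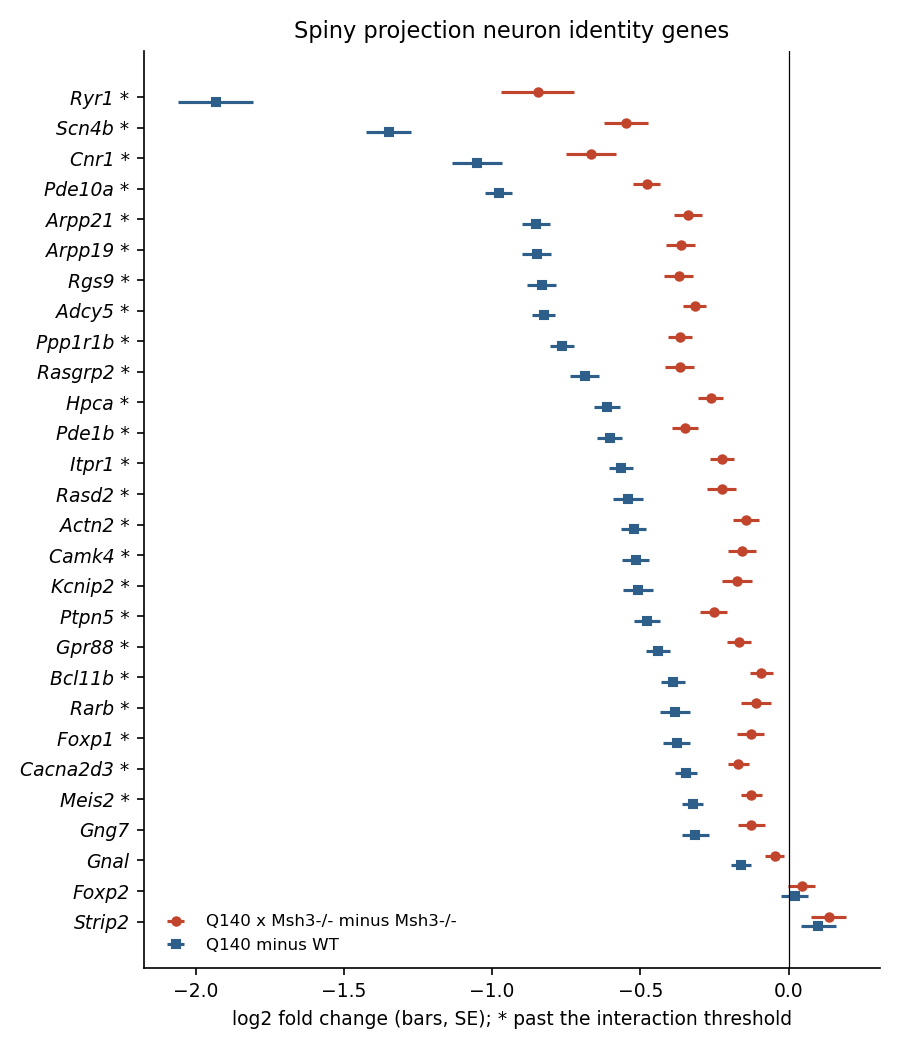
Log2 fold change (horizontal, bars SE) of the 28 spiny projection neuron identity genes for Q140 x Msh3-/- minus Msh3-/- (circles) and Q140 minus WT (squares), ordered by the second. Asterisks mark the 24 genes past the interaction threshold, in all of which the circle lies nearer to 0 than the square.

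The summed level of these 28 genes was 20200 to 25850 CPM in Q140 x Msh3-/- mice (median 23240), against 25390 to 30470 CPM in Msh3-/- mice (median 28380). In Q140 mice it was 16900 to 18560 CPM (median 17850), against 26430 to 29990 CPM in WT mice (median 27480). Marker sums of other cells moved less but in part the same way. The sum of 14 astrocyte markers was 4830 to 5721 CPM in Q140 x Msh3-/- mice, 5285 to 6135 CPM in Msh3-/- mice, 4803 to 5175 CPM in Q140 mice and 5562 to 6024 CPM in WT mice. That of 14 oligodendrocyte markers had medians of 5794 CPM in Q140 x Msh3-/-, 6217 CPM in Msh3-/-, 5619 CPM in Q140 and 6667 CPM in WT mice. That of 14 endothelial and mural markers had medians of 410 CPM in Q140 x Msh3-/-, 462 CPM in Msh3-/-, 392 CPM in Q140 and 471 CPM in WT mice. No defining marker of these types was at 0. Their part in the results for neuronal genes was not tested. Of the 28, 20 were called positive without the libraries that stood apart, and 14 with the leading code of the library names as a term.

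Markers of both output pathways were among the called genes. Of 8 indirect-pathway markers tested, 5 had a positive interaction and none a negative one, against 4.09% and 2.06% of all genes. Their median was 0.36. Penk, the enkephalin precursor of indirect-pathway neurons (4, 4133531-4138819, minus strand), had 973, 1137 and 1356 CPM in Q140 x Msh3-/- mice, against 1504, 1626 and 1816 CPM in Msh3-/- mice. It had 582, 676 and 801 CPM in Q140 mice, against 1558, 1717 and 1816 CPM in WT mice. Again the Q140 x Msh3-/- mice overlapped neither the Q140 mice nor the mice without Q140. Penk fell by 0.52 on the Msh3-/- background and by 1.33 on the WT background, the smallest interaction p of the list (interaction 0.81, SE 0.0751, adjusted p = 2.9e-10). Drd2, the inhibitory dopamine receptor, had -0.27 on Msh3-/- and -0.73 on WT (interaction 0.46, SE 0.0602). Adora2a, the stimulatory adenosine receptor, had -0.38 on Msh3-/- and -1.004 on WT (interaction 0.63, SE 0.0908). Gpr6, an orphan receptor enriched in these neurons, had -0.24 on Msh3-/- and -0.75 on WT (interaction 0.51, SE 0.0695).

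Of 9 direct-pathway markers, 2 had a positive interaction and none a negative one, against 4.09% and 2.06% of all genes. Their median was 0.08, and the list was mixed, with 5 positive and 4 negative signs. On the WT background Q140 raised 3 of the 9 past the threshold and lowered 4. On the Msh3-/- background it raised 1 and lowered 3. Drd1, the stimulatory dopamine receptor, had 248, 277 and 299 CPM in Q140 x Msh3-/- mice, against 310, 332 and 364.5 CPM in Msh3-/- mice. Drd1 had 189, 204 and 218.5 CPM in Q140 mice, against 303, 339 and 353 CPM in WT mice. The Q140 x Msh3-/- mice lay between the other groups with no overlap (effects -0.29 on Msh3-/- and -0.71 on WT, interaction 0.41, SE 0.0586, adjusted p = 1.63e-06). Chrm4, the inhibitory muscarinic receptor, had effects of -0.26 on Msh3-/- and -0.79 on WT (interaction 0.53, SE 0.0622). Isl1, a transcription factor of direct-pathway neurons, rose on both backgrounds, by 0.16 on Msh3-/- and by 0.25 on WT, and its interaction of -0.09 (SE 0.0684) did not pass (adjusted p = 0.527). The difference between the 2 pathways' lists was not tested.

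Signalling genes downstream of these receptors also gave positive interactions. Of 27 genes of cAMP and dopamine signalling, 12 had a positive interaction and none a negative one, with a median of 0.23. Several members are also identity genes. Over all genes 4.09% were positive and 2.06% negative, which holds as the background for the channel and calcium lists below too. Rgs14, a regulator of G protein signalling, had -0.29 on the Msh3-/- background and -1.06 on the WT background (interaction 0.77, SE 0.087, adjusted p = 2.38e-08). Ppp1r1a, an inhibitor of protein phosphatase 1, had -0.18 on Msh3-/- and -0.79 on WT (interaction 0.60, SE 0.0672). Among 26 potassium and sodium channel genes 13 were positive and none negative (median 0.19), and among 30 genes of calcium stores, calcium channels and CaM kinases 12 were positive and 1 negative (median 0.14). Without the libraries that stood apart the positive calls were 10 for the potassium and sodium channels and 8 for the calcium list. Kcna4, a voltage-gated potassium channel, had a lowest, median and highest level of 94.7, 109 and 113 CPM in Q140 x Msh3-/- mice, against 101.2, 110 and 113 CPM in Msh3-/- mice. Its levels were 83.6, 90.1 and 93.9 CPM in Q140 mice, against 96.8, 106.5 and 114 CPM in WT mice. The Q140 x Msh3-/- mice overlapped the Msh3-/- mice and were all above the Q140 mice (effects -0.01 on Msh3-/- and -0.25 on WT, interaction 0.24, SE 0.046). Kcnj4, an inward rectifier, had -0.09 on Msh3-/-, which did not pass, and -0.47 on WT (interaction 0.38, SE 0.0732).

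Itpr1, the IP3 receptor, fell by 0.22 on the Msh3-/- background and by 0.56 on WT (interaction 0.34, SE 0.0577). Atp2b1, a plasma membrane calcium pump, had -0.25 on Msh3-/- and -0.58 on WT (interaction 0.32, SE 0.0557). The negative member of the calcium list was Cacna2d1, a calcium channel subunit, which rose on both backgrounds, by 0.13 on Msh3-/- and 0.35 on WT (interaction -0.22, SE 0.0487, adjusted p = 0.00248). Of 34 genes of glutamate and GABA receptors and their scaffolds 10 were positive and none negative (median 0.08), against 4.09% and 2.06% of all genes. Shank3, a postsynaptic scaffold, had -0.22 on Msh3-/- and -0.64 on WT (interaction 0.42, SE 0.0565). Gabrd, the delta subunit of extrasynaptic GABA receptors, had -0.21 on Msh3-/- and -0.65 on WT (interaction 0.44, SE 0.0577). Grm4, an inhibitory glutamate receptor, had -0.12 on Msh3-/- and -0.55 on WT (interaction 0.43, SE 0.0553), and Grik2, a kainate receptor subunit, -0.18 on Msh3-/- and -0.62 on WT (interaction 0.43, SE 0.0628). Each of these 4 receptor and scaffold genes fell on both backgrounds and fell less on Msh3-/-.

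Secreted factors included genes whose Q140 effect was past the threshold on the WT background alone. Of 22 neuropeptides and secreted factors 5 were positive and none negative (median 0.22), against 4.09% and 2.06% of all genes. Fst, follistatin, an extracellular antagonist of activins (13, 114452290-114458951, minus strand), had 4.38, 4.905 and 6.63 CPM in Q140 x Msh3-/- mice, against 4.18, 5.52 and 7.09 CPM in Msh3-/- mice. Its levels were 0.937, 1.45 and 2.93 CPM in Q140 mice, against 3.69, 5.26 and 7.41 CPM in WT mice. All Q140 mice were below all mice of the other 3 groups, and those 3 overlapped. On the Msh3-/- background the effect was -0.13 (adjusted p = 0.652), on the WT background -1.82, and the interaction 1.69 (SE 0.201, adjusted p = 5.03e-08). Inhba, a subunit of the activins that follistatin binds, had -0.21 on Msh3-/-, which did not pass, and -0.95 on WT (interaction 0.73, SE 0.119). Crh, corticotropin-releasing hormone, was low, with 272 counts in all in Q140 x Msh3-/- mice against 321 in Msh3-/- mice, and 73 in Q140 against 500 in WT mice. Its Q140 to WT ratio of summed levels was 0.138 (95% exact counting interval 0.106 to 0.176), and its Q140 x Msh3-/- to Msh3-/- ratio 0.774 (0.656 to 0.913), intervals that cover counting error only. Q140 mouse M2 had 0.635 CPM of Crh and the next Q140 mouse 0.183 CPM. The Crh interaction was 2.58 with all mice and 3.18 without Q140 mouse M2.

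**Figure D4:**
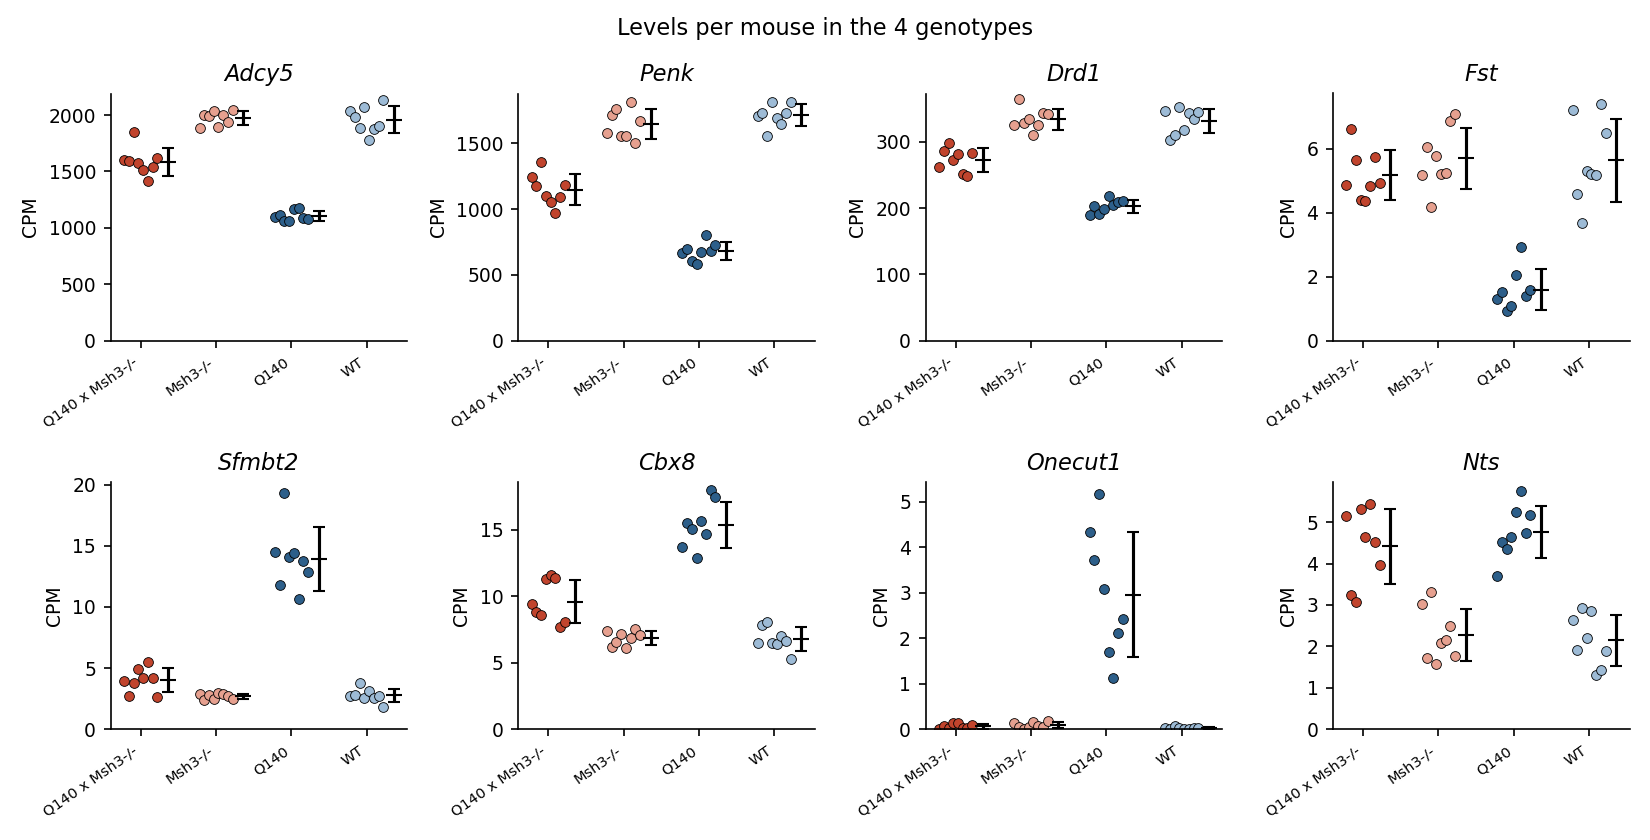
Level in CPM (vertical, from 0) of 8 genes in each mouse of the 4 genotypes (points; bars mean ± SD, n = 8 a group). In Penk and Drd1 the Q140 x Msh3-/- mice lie between the Q140 mice and the mice without Q140 with no overlap. In Adcy5 and Cbx8 they overlap neither the Q140 nor the Msh3-/- mice but overlap some WT mice, while in Fst they overlap the mice without Q140.

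The 12 genes of largest positive interaction above a mean log2 CPM of 1 included Ryr1 and Fst and lay between 1.09 and 2.13. Gpx6, a glutathione peroxidase family member (13, 21312125-21319624, plus strand), led them. It had 3.47, 4.85 and 7.27 CPM in Q140 x Msh3-/- mice, against 7.36, 11.2 and 17.0 CPM in Msh3-/- mice. It had 0.607, 0.978 and 1.96 CPM in Q140 mice, against 8.415, 10.9 and 14.4 CPM in WT mice. The 2 Q140 groups overlapped neither each other nor their controls (effects -1.14 on Msh3-/- and -3.27 on WT, interaction 2.13, SE 0.275, adjusted p = 6.34e-07). Ddit4l, a negative regulator of mTOR signalling, had 12.6, 18.8 and 26.2 CPM in Q140 x Msh3-/- mice, against 29.2, 35.6 and 37.85 CPM in Msh3-/- mice. Ddit4l had 5.28, 6.85 and 9.30 CPM in Q140 mice, against 33.1, 37.0 and 40.8 CPM in WT mice. Its 4 groups were ordered in the same way, without overlap between either Q140 group and its control (interaction 1.54, SE 0.154). The others were Wnt8b, a Wnt ligand (1.97), Abhd11os, an antisense transcript (1.90), Slc4a11, of the bicarbonate transporter family (1.43), Sec14l3 (1.37), Mas1, an angiotensin-(1-7) receptor (1.35), Chrna4, a nicotinic receptor subunit (1.13), Vwa7 (1.11) and Gm9754. All 12 stayed past the threshold in each of the 32 fits that left out 1 mouse. Wnt8b, Sec14l3 and Gm9754 lost their call with the leading code of the library names as a term. In males alone Wnt8b, Sec14l3, Vwa7, Gm9754 and Ryr1 lost it, and in females alone Gm9754 did. Abhd11os is named as the opposite-strand transcript of Abhd11, and its counts are uncertain to that extent.

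Genes that rose in Q140 striatum and rose less on the Msh3-/- background included Polycomb group members. Polycomb complexes keep developmental genes silent through histone marks, and loss of that silencing is known from Huntington's disease models. Of 32 tested, 8 had a negative interaction and 1 a positive one, against 2.06% and 4.09% of all genes, with a median of -0.05. Sfmbt2, which encodes an MBT-domain Polycomb protein (2, 10370510-10595253, plus strand), had 2.66, 4.07 and 5.50 CPM in Q140 x Msh3-/- mice, against 2.385, 2.71 and 2.95 CPM in Msh3-/- mice. It had 10.6, 13.9 and 19.35 CPM in Q140 mice, against 1.81, 2.68 and 3.77 CPM in WT mice. Every Q140 mouse was above every mouse of the other 3 groups. Sfmbt2 rose by 0.57 on the Msh3-/- background and by 2.34 on the WT background (interaction -1.77, SE 0.198, adjusted p = 2.08e-08).

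Cbx8, a chromobox subunit of Polycomb repressive complex 1 (11, 119036305-119040969, minus strand), had 7.66, 9.125 and 11.6 CPM in Q140 x Msh3-/- mice, against 6.07, 6.98 and 7.50 CPM in Msh3-/- mice. It had 12.9, 15.3 and 18.0 CPM in Q140 mice, against 5.24, 6.56 and 8.07 CPM in WT mice. Each Q140 group stood above its control without overlap, and the Q140 mice stood above the Q140 x Msh3-/- mice (effects 0.49 on Msh3-/- and 1.18 on WT, interaction -0.69, SE 0.132, adjusted p = 2.9e-04). Bmi1, a RING finger subunit, had 0.04 on Msh3-/-, which did not pass, and 0.29 on WT (interaction -0.25, SE 0.0542). Cbx2 was called in neither background, with -0.23 on Msh3-/- (adjusted p = 0.0505) and 0.16 on WT, and had an interaction of -0.39 (adjusted p = 0.0161). Eed, a core subunit of the methyltransferase complex, had -0.07 on Msh3-/-, which did not pass, and 0.19 on WT (interaction -0.27, adjusted p = 0.0131). Pcgf6 and Rnf2 were past the threshold in 10 of 32 fits that each left out 1 mouse. The positive member was Bap1, a histone deubiquitinase, with -0.03 on Msh3-/-, which did not pass, and -0.19 on WT (interaction 0.16, adjusted p = 0.00726).

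Of 43 developmental transcription factors, 14 had enough counts to test, 3 of them with a negative interaction and none with a positive one. A gene on in 1 group alone passes the count filter through that group, so the 3 of 14 is given as a count only. Onecut1, a cut homeobox factor (9, 74861921-74891781, plus strand), was, among the 4 genotypes, close to absent outside Q140 mice. Outside these genotypes, Q140 raised it on the Msh3+/- background too, by 4.48 log2 (SE 0.485). It had 24 counts in all in Q140 x Msh3-/- mice against 30 in Msh3-/- mice, and 1180 in Q140 mice against 7 in WT mice. Every Q140 mouse lay between 1.12 and 5.17 CPM, and no mouse of the other 3 groups exceeded 0.170 CPM. The ratio of summed levels was 0.731 for Q140 x Msh3-/- to Msh3-/- (95% exact counting interval 0.409 to 1.29) and 159 for Q140 to WT (76.9 to 396). For Msh3-/- to WT it was 4.62 (1.99 to 12.5), intervals that cover counting error only. That difference without Q140 enters the interaction, and it did not pass in edgeR's test (adjusted p = 0.810). Of the 4 genotypes, only Q140 had Onecut1 levels that pass the count filter. The adjusted p of its interaction, 3.57e-08, is therefore given as a description and not as support. The fitted size depends on the prior count and is not a bound.

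Onecut2 (18, 64340020-64400987, plus strand), of the same family, went opposite ways. It had 63.7, 81.5 and 104 CPM in Q140 x Msh3-/- mice, against 95.6, 107 and 123 CPM in Msh3-/- mice. It had 96.3, 137 and 151 CPM in Q140 mice, against 80.6, 90.1 and 123 CPM in WT mice. Each pair overlapped, with the medians lower by Q140 on one background and higher on the other. Onecut2 fell by 0.44 on the Msh3-/- background and rose by 0.48 on the WT background (interaction -0.92, SE 0.13, adjusted p = 4.04e-06). Emx2, a homeobox factor of the embryonic cortex, had 0.05 on Msh3-/-, which did not pass, and 0.52 on WT (interaction -0.47, SE 0.114), and its antisense neighbour Emx2os, whose reads may not be separable from those of Emx2, 0.09 on Msh3-/- and 1.13 on WT (interaction -1.04, SE 0.174). Other genes of the largest negative interactions were Kazald1 (-1.36), BC030499 (-1.14), Dsp, a desmosome protein (-1.09), Tpx2, a spindle assembly factor (-1.06), Gm44997 (-0.76), Slc5a5, the sodium-iodide symporter (-0.74), Rgsl1 (-0.74) and Pcdha11, a clustered protocadherin (-0.68). Rgsl1 was called in 20 of 32 fits that each left out 1 mouse.

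Upstream sequences are given for 3 of these genes, 1 that fell with Q140 and 2 that rose, to show how far their promoters differ in CG dinucleotides, the letters that mark CpG islands and Polycomb target promoters. They are RefSeq windows on GRCm38.p6, 150 bases each that begin 250 bases before the RefSeq start, 5′ to 3′ on the gene's strand, with each CG in capitals. For Gpx6 and Cbx8 the RefSeq start differs from the GENCODE start given with the gene above. Gpx6 is chr13:21311953-21312102 on the plus strand, Onecut1 chr9:74861671-74861820 on the plus strand and Cbx8 chr11:119041014-119041163 on the minus strand.
Gpx6: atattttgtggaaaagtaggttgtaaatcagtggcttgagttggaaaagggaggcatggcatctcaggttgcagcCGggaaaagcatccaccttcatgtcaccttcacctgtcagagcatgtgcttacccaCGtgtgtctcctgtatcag
Onecut1: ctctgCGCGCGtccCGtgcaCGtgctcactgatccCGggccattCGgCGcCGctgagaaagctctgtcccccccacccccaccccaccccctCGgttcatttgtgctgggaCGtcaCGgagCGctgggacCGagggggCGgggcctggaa
Cbx8: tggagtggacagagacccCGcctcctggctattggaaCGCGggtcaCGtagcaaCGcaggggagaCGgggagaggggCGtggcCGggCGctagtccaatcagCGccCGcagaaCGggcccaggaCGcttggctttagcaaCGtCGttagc
The Gpx6 window held 2 CG and the Onecut1 and Cbx8 windows 15 each. Over 22862 RefSeq windows of the same 150 bases the median was 3, with 35.2% of windows below the Gpx6 count and 91.8% below the other 2. No comparison over all called genes was made, since only 69.9% of the positive and 74.2% of the negative genes had a RefSeq window, under the 80% required.

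Genes of mismatch repair and repeat instability, a list that holds Msh3, had 3 negative interactions and no positive one of 19 tested, against 2.06% and 4.09% of all genes. In the list 16 of 19 signs were negative, with a median of -0.11. Msh3, the targeted gene, was 1 of the 3, with Mlh3 and Pole the others. The negative calls were 5 with total-count scaling, 0 with the leading code of the library names as a term and 0 in males alone. Mlh3, a subunit of an endonuclease that acts on repeats, had 35.9, 37.65 and 38.9 CPM in Q140 x Msh3-/- mice, against 35.4, 37.0 and 37.9 CPM in Msh3-/- mice. Mlh3 had 36.5, 43.8 and 46.0 CPM in Q140 mice, against 34.98, 37.1 and 38.3 CPM in WT mice. Only the Q140 median stood out, and the ranges overlapped (effects 0.02 on Msh3-/- and 0.21 on WT, interaction -0.19, SE 0.0457, adjusted p = 0.0052). Pole, a replicative DNA polymerase, had 0.02 on Msh3-/- and 0.65 on WT (interaction -0.62, adjusted p = 0.0328) and was called in 19 of 32 fits that each left out 1 mouse. Without WT mouse F1, 1 member of the list was called.

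The core circadian clock gave 5 positive and no negative interactions of 17 genes, against 4.09% and 2.06% of all genes, with a median of 0.19. Npas2, the CLOCK paralog abundant in forebrain, had 71.5, 82.8 and 88.6 CPM in Q140 x Msh3-/- mice, against 88.9, 95.5 and 108 CPM in Msh3-/- mice. Npas2 had 52.6, 60.96 and 66.4 CPM in Q140 mice, against 92.8, 98.0 and 107 CPM in WT mice. The Q140 x Msh3-/- mice lay between, without overlap on either side (effects -0.25 on Msh3-/- and -0.72 on WT, interaction 0.47, SE 0.0678). Nr1d1, the repressor REV-ERB alpha, had -0.01 on Msh3-/-, which did not pass, and -0.45 on WT (interaction 0.45, SE 0.0872), Bhlhe40 0.09 on Msh3-/-, which did not pass, and -0.36 on WT (interaction 0.45, SE 0.103), and Hlf -0.13 on Msh3-/-, which did not pass, and -0.42 on WT (interaction 0.29, SE 0.0715). The time of day of dissection is not given in the labels, and its part in these results was not tested.

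Several gene groups, some of which responded to Q140 on the WT background, had a share of called interactions below the 6.15% of all genes. Proteasome subunits had 12 of 31 higher in Q140 than in WT mice and none called on the Msh3-/- background, yet 0 of 31 had an interaction past the threshold, with a median of -0.04. Of 23 cholesterol synthesis genes 6 were higher and 3 lower on WT, none was called on Msh3-/-, and none had a called interaction. Of 22 heat shock proteins and cochaperones 7 were higher and 2 lower on WT, and 1 had a called interaction, Hspb8, which was 0.40 (adjusted p = 0.0246). Oxidative phosphorylation gave 1 of 76, p53 targets 1 of 19, interferon response genes 0 of 24 and immediate early genes 0 of 19. Cytosolic ribosomal protein genes had 2 positive and 2 negative of 74. With total-count scaling there were negative calls in 4 proteasome, 2 cholesterol synthesis, 2 heat shock and 2 p53 target genes. Clustered protocadherins, whose near-identical exons make counts uncertain, were above the share of all genes, with 2 positive and 6 negative of 57 against 4.09% and 2.06% (median -0.13). Q140 effects were called for 20 protocadherins, all higher, on the Msh3-/- background and for 30 higher and 7 lower on WT. Without Q140 mouse F3, 3 protocadherins were negative, and with the leading code of the library names as a term 0 were. An interaction that misses the threshold does not show that the response was the same.

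**Figure D5:**
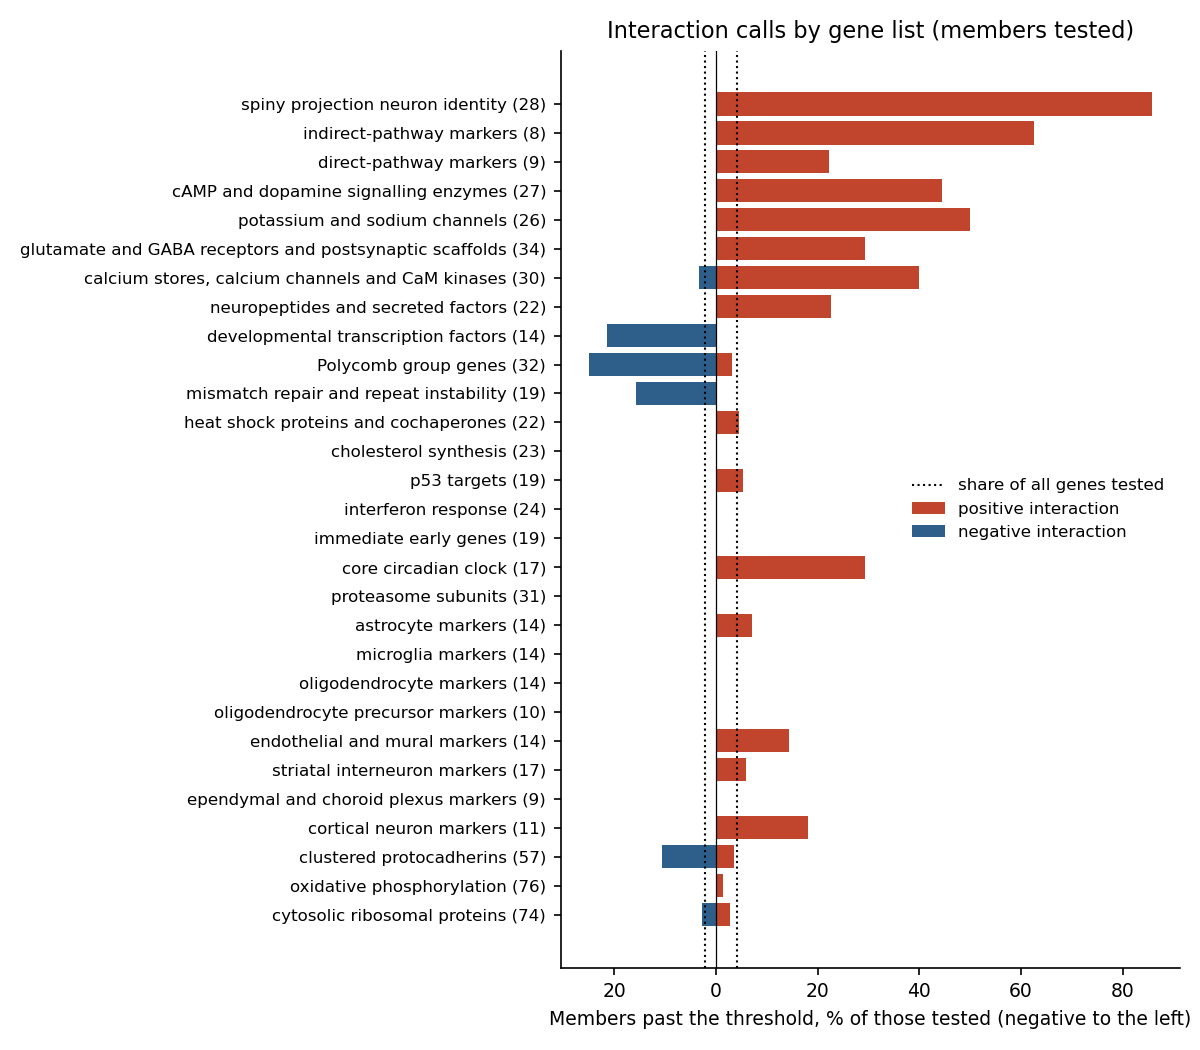
Percent of tested members of each gene list (members tested in brackets) with a positive interaction (right) or a negative one (left) past the threshold, with dotted lines at the share of all genes tested, 4.09% and 2.06%. Spiny projection neuron identity genes reach furthest to the right with 24 of 28, and Polycomb group genes furthest to the left with 8 of 32.

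Many genes were called on both backgrounds in the same direction with no interaction past the threshold. Of these, 792 had the smaller effect on Msh3-/- and 174 the larger. The few genes given here, which changed on both backgrounds without a called interaction, were all chosen after their values were seen. Nts, the peptide neurotensin, had 3.07, 4.585 and 5.43 CPM in Q140 x Msh3-/- mice, against 1.57, 2.12 and 3.305 CPM in Msh3-/- mice. It had 3.70, 4.68 and 5.75 CPM in Q140 mice, against 1.32, 2.055 and 2.92 CPM in WT mice. The 2 Q140 groups covered nearly the same range (effects 0.95 on Msh3-/- and 1.15 on WT, interaction -0.19, 95% confidence interval -0.664 to 0.277). Gabrb2, a GABA receptor subunit, rose by 0.23 on Msh3-/- and by 0.17 on WT, with an interaction of 0.06 (-0.0731 to 0.198). The chaperone genes Hspa8 and Hspa1a rose on both backgrounds. Hspa8 had 0.18 on Msh3-/- and 0.34 on WT, and Hspa1a 0.51 on Msh3-/- and 0.67 on WT, with interactions of -0.15 and -0.16 that did not pass. The Nts interval leaves room for a difference in either direction.

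The 6 genes called with opposite signs were Onecut2, Ddhd2, a lipid hydrolase (-0.09 on Msh3-/-, 0.09 on WT), 1110003F10Rik (-0.41 on Msh3-/-, 0.36 on WT), and, with a positive interaction, Synpr, a synaptic vesicle protein (0.15 on Msh3-/-, -0.28 on WT), Mtfp1, a mitochondrial fission factor (0.24 on Msh3-/-, -0.17 on WT) and Fam124a (0.14 on Msh3-/-, -0.12 on WT). In males alone none of these 6 interactions was called, and in females alone those of 1110003F10Rik, Mtfp1 and Fam124a were not. Ddhd2, 1110003F10Rik, Mtfp1 and Fam124a lost their call with the leading code of the library names as a term. Genes called on the Msh3-/- background alone, with examples chosen after their values were seen, included Pdzrn3, a ubiquitin ligase. It had 7.32, 8.71 and 13.6 CPM in Q140 x Msh3-/- mice, against 5.57, 6.15 and 7.40 CPM in Msh3-/- mice. It had 5.601, 6.31 and 7.84 CPM in Q140 mice, against 5.71, 6.59 and 7.40 CPM in WT mice. The Q140 x Msh3-/- mice were the high group, with some overlap (effects 0.54 on Msh3-/- and 0.01 on WT, interaction 0.53, SE 0.119, adjusted p = 0.00256). Mef2c, a neuronal transcription factor, had 0.27 on Msh3-/- and 0.07 on WT, the second not past the threshold (interaction 0.19, SE 0.054), and Sstr4, a somatostatin receptor, 0.25 on Msh3-/- and -0.17 on WT, the second likewise (interaction 0.41, SE 0.114). These calls were kept when any 1 mouse was left out. They were lost in males alone and with the leading code of the library names as a term. In females alone the calls of Mef2c and Sstr4 were lost too, and with total-count scaling that of Mef2c. For Pdzrn3 the interaction was 0.85 (SE 0.152) in females and 0.19 (SE 0.154) in males, a difference that did not pass after adjustment.

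Marker lists of other cell types had 0 to 2 called members each, in short lists set against 6.15% of all genes. Of 14 microglia markers none had an interaction past the threshold, although all 14 signs were positive (median 0.18), and 9 were lower in Q140 than in WT mice while none was called on the Msh3-/- background. Their sum had a median of 633 CPM in Q140 x Msh3-/- mice, 646 CPM in Msh3-/- mice, 576 CPM in Q140 mice and 634 CPM in WT mice. Without Q140 x Msh3-/- mouse M1, 3 microglia markers were called, and without all the libraries that stood apart 2. Astrocyte markers gave 1 of 14, Slc4a4, a bicarbonate transporter (interaction 0.19, adjusted p = 0.0133). Oligodendrocyte and oligodendrocyte precursor markers gave 0 of 14 and 0 of 10, and ependymal and choroid plexus markers 0 of 9. Endothelial and mural markers gave 2 of 14, Cdh5 (0.33) and Pdgfrb (0.24), called in 20 and 8 of 32 fits that each left out 1 mouse, and interneuron markers 1 of 17, Th. Without Msh3-/- mouse M1 neither list had a call. Cortical neuron markers gave 2 of 11, Rspo1 (0.95) and Lamp5. Their median interaction, 0.49, was the largest of all lists, with 9 of 11 signs positive. Their median effect was 0.37 on Msh3-/- and -0.14 on WT. The endothelial and cortical shares were above that of all genes. Without the libraries that stood apart each of these 2 lists had 1 call. The sum of the cortical markers had a median of 197 CPM in Q140 x Msh3-/- mice, 169 CPM in Msh3-/- mice, 170 CPM in Q140 mice and 169 CPM in WT mice, with a highest mouse of 266 CPM in Q140 x Msh3-/- and Emx1 at 0 in at least 1 library. Its part in the results was not tested.

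Neighbours of a targeted gene can carry flanking chromosome of the strain in which the allele was made, so 4 genes near Msh3, chosen after values were seen, are given apart. Rasgrf2, a Ras exchange factor (13, 91880400-92131656, minus strand), had 24.4, 28.3 and 32.4 CPM in Q140 x Msh3-/- mice, against 12.6, 24.1 and 29.4 CPM in Msh3-/- mice. It had 35.5, 43.0 and 52.3 CPM in Q140 mice, against 47.5, 59.15 and 68.5 CPM in WT mice. All mice of both Msh3-/- genotypes were below all Q140 and WT mice. Rasgrf2 had 0.27 on Msh3-/-, which did not pass, and -0.44 on WT (interaction 0.71, SE 0.18, adjusted p = 0.0101). Cmya5, F2r and AW495222 had interactions that did not pass, with adjusted p-values of 0.0738, 0.222 and 0.355. The genotype and the flanking chromosome cannot be told apart here.

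With Msh3+/- in place of Msh3-/-, few genes had an interaction past the threshold. The same difference computed with Q140 x Msh3+/- and Msh3+/- mice in place of the Msh3-/- genotypes was past the threshold in 3 genes (0.0152%), and in 1791 (9.08%) at an unadjusted p under 0.05. The 3 were Fst (1.18, SE 0.202, adjusted p = 0.00817), Abhd11os (1.13, SE 0.2, adjusted p = 0.0105) and Nptx1, a neuronal pentraxin (0.54, SE 0.101, adjusted p = 0.0191). On the Msh3-/- background the same 3 genes had 1.69, 1.90 and 0.77. Both interactions contain the Q140 minus WT difference and so share libraries. The 806 positive genes had a median of 0.115 with Msh3+/- and 0.303 with Msh3-/-, and the 407 negative genes -0.116 with Msh3+/- and -0.269 with Msh3-/-. Signature scores of Q140 x Msh3+/- mice lay between 81.8% and 110% (95% ± 9.79, SD, n = 8), but the signature genes were chosen on those mice.

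In a fit with sex and genotype crossed, no gene had an interaction that differed between females and males at an adjusted p under 0.05 by edgeR. At an unadjusted p under 0.05, 646 of 19714 genes did, where chance alone gives about 1 in 20. With females alone 489 genes had an interaction past the threshold, and with males alone 114, each from 4 mice a group. With the leading code of the library names as a term the interaction count was 243. Positive calls were then 7 for cAMP and dopamine signalling, 6 for potassium and sodium channels, 6 for the calcium list, 4 for receptors and scaffolds, 3 for secreted factors and 3 for the clock, and negative calls were 4 for Polycomb group genes. There are 27 such codes, their meaning is not given, 15 libraries are alone with theirs, and 15 residual degrees of freedom remain instead of 41.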

How the data were processed

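Striatal RNA of 48 mice (8 in each of 6 genotypes) was sequenced from stranded TruSeq libraries, per the labels' protocols. The authors deposited whole-number read counts for 48795 genes, not normalized. Alignment and counting tools, per the submitters' processing notes, were STAR (2.7.5c), HTSeq (0.12.3) and SAMtools (1.10), on GRCm38 (mm10). Which annotation release and strand setting were used for counting is not given in the sources used here. A deposited FPKM table rescales these counts (largest relative deviation 8e-08 over 16336 genes) and was not used. Among the symbols, 27 turned into dates were restored from identifiers. Coordinates are from GENCODE M21 on GRCm38.

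Groups, sexes and replicate numbers came from sample titles. edgeR 4.0.16 in R 4.3.3 kept 19714 genes (filterByExpr, minimum count 10, 29081 left out), with TMM, robust quasi-likelihood dispersions and the F-test over all 48 libraries (6 genotypes plus sex, 41 residual degrees of freedom), so that all groups share 1 estimate of the spread. Adjustment was by Benjamini-Hochberg over those genes. The procedure was tested on simulated counts. Alternatives used DESeq2 1.42.0 (Wald test, size factors), total-count scaling, other filters, other terms and leaving out each mouse. Same-numbered mice did not pair: of 48 correlations of their residuals, between -0.12 and 0.36, 2 were over 0.1. limma 3.58.1 gave the residuals, and scores used log2 CPM with a prior count of 2.

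Members and lists were chosen with earlier results of these data known. Genes named are Msh3, Htt, the 12 of largest positive and of largest negative interaction past the threshold above a mean log2 CPM of 1, and up to 4 called members of each list by smallest p, or the 1 of smallest p where none was called, 84 in all, of which 1 is not reported here. Those beyond the rule were chosen after their values were seen.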

Additional observations from a re-analysis of the deposited data

Results flagged for a closer look

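Of 340 sets of 8 mice looked at (each named gene in each genotype, and the signature score), 18 had 1 mouse far from the others by Dixon's criterion (gap over range above 0.526), where chance gives about 1 in 20. In Q140 x Msh3-/- mice there was none. In Msh3-/- mice the highest value stood apart for Htt (M3, 237.8 CPM, next 223.1), Sec14l3 (F4, 27.59, next 19.56), Chrna4 (F3, 21.0, next 18.49), Grik2 (F3, 187.2, next 169.2) and Clic6 (M3, 24.28, next 19.4), and the lowest for Nr1d1 (M3, 131.8, next 160.1). In Q140 mice the highest stood apart for Sfmbt2 (F3, 19.35 CPM, next 14.51) and Crh (M2, 0.6348, next 0.1829). The lowest stood apart there for Emx2 (M2, 7.711, next 10.38), Psma1 (M2, 50.84, next 55.78), Rpl39 (M2, 12.96, next 14.42) and Pdgfrb (F4, 20.65, next 23.95). In WT mice the highest stood apart for Onecut1 (F3, 0.06117 CPM, next 0.02465), H2-K1 (F2, 36.53, next 23.43), Slc4a4 (M2, 439.6, next 429.0), C1qb (F2, 68.35, next 52.64) and Cox5b (F4, 88.81, next 79.13), and the lowest for Drd2 (M1, 273.3, next 294.9). Mouse Q140 M2 accounts for 4 of the 18. The cause was not tested for any of them.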

How the results depend on the processing

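Compared with 1213 interaction calls (806 positive, 407 negative), the replicate block gave 1199 (801, 398), DESeq2 size factors 1210, the 32 libraries of the 4 genotypes alone 1250 and the DESeq2 Wald test 1462. The replicate numbers do not pair the mice, and among 112 genes named the block lost the calls of Rpsa and Cnr1. Scaling by total counts moved the median interaction of all genes to -0.0547, against -0.00354 with TMM, and turned the split to 537 positive and 1194 negative, with 1252 up on the Msh3-/- background and 5773 up and 2064 down on WT. Without a low-count filter there were 268 negative calls. With the leading code of library names as a term there were 243 (219 positive, 24 negative), with 596 (217 up, 379 down) for Q140 on Msh3-/- and 3336 (1521 up, 1815 down) on WT. Females alone gave 489 (346, 143), with 208 (94, 114) on Msh3-/- and 3925 (1954, 1971) on WT, and males alone 114 (103, 11), with 373 (143, 230) on Msh3-/- and 3144 (1443, 1701) on WT. Those subsets hold fewer mice or degrees of freedom, and the cause of the other moves was not tested. Leaving out each mouse gave 969 to 1422 interactions (673 to 897 positive, 296 to 525 negative), 1027 (without Q140 x Msh3-/- F4) to 1786 for Q140 on Msh3-/- (496 to 855 up, 531 to 931 down) and 6038 to 6575 on WT (3014 to 3438 up, 2902 to 3220 down). The share stayed between 34.3% and 47.6% and the slope between 0.319 and 0.416 under all alternatives. Under the name-code term the signs turned for H2-K1 (-0.0328), Cdh5 (-0.02521), Gabrb2 (-0.04581) and Hspa1a (0.03027), and in females alone for Hspa1a (0.05466). Of the 75 called genes named by rule, 64 were called in every fit that left out 1 mouse. Of 112 named, 51 kept their sign and lost their call under the name-code term, where Cdh5 lost both, and 67 lost their call in males alone.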
